A study of Mus musculus with 10 samples.

Results

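MicroRNA genes were compared between the brains of adult mice exposed to ethanol before and shortly after birth and the brains of unexposed mice. The set held every probe set whose annotation gave a single gene symbol that began with Mirlet7, or that was Mir followed by a number below 400 with an optional letter or dash suffix. Symbols of host genes were left out. This gave 207 probe sets, 1 for each of 207 genes, of the 21789 probe sets with a single symbol and the 35556 probe sets of the value table. A further 17 probe sets that named a microRNA together with other symbols were not members.

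RNA came from whole brains of male C57BL/6J offspring at postnatal day 70. In the ethanol groups, mothers of the same strain could drink 10% ethanol in water or plain water, and kept this choice from gestational day 0 until their pups reached postnatal day 10. In the control groups the mothers had only water. Each array held 200 ng of total RNA from a pool of mice, labelled for Affymetrix whole-transcript arrays. Experiment 1 had 2 ethanol and 2 control arrays with pools of 3 mice, and experiment 2 had 3 ethanol and 3 control arrays with pools of 2 mice, so that each experiment used 12 mice. The labels do not say which litters entered which pool, so the tests measure the spread between pools. The exposure reached the pups through their mothers, and the amount that each mother drank is not given in the sources used here. A whole brain holds many cell types, so fewer cells of a type and less RNA per cell cannot be told apart.

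The medians of the arrays over all tested probe sets ran from 7.345 to 7.402 in log2 units. Markers of neurons were high on all arrays, with mean levels of 11.88 to 11.98 in log2 units. For markers of the anterior pituitary, a gland at the base of the brain, all 7 of 7 measured genes were above 0 in ethanol minus control, and their summed level, as a mean of log2 values, ran from 7.228 to 8.096 in experiment 1 ethanol samples against 5.627 to 5.769 in controls. In experiment 2 it ran from 6.233 to 8.684 against 6.141 to 6.571. Choroid plexus markers were below 0 in 5 of 5 genes, with a median difference of -0.267. The part of either in the microRNA results was not tested. For every probe set the means of the experiments were equal to within 5.83e-05, so levels were compared only within an experiment.

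A microRNA gene is transcribed as a long primary transcript, or lies within the intron of another gene. The nuclear enzyme Drosha with its partner Dgcr8 cuts out a hairpin, Dicer1 trims the hairpin to a short duplex, and an Argonaute protein carries 1 strand as the mature microRNA to target messenger RNAs. Target choice rests mainly on the seed, bases 2 to 8 of the mature strand, and the bound messenger RNA is repressed or degraded. Many microRNAs are particular to neurons or glia, and several act in neuronal differentiation, synapse growth and the response to activity. Whole-transcript arrays of this kind do not tell primary, precursor and mature RNA apart. Column clean-up of the RNA keeps long molecules better than short ones. The values below are therefore levels of RNA from each microRNA gene, not levels of mature microRNA.

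The sequences that carry the main findings are given first, from RefSeq (GRCm38.p6), 5′ to 3′ with the seed in capitals. A hairpin was matched for 183 of the 207 genes and at least 1 mature sequence for 189. The genes named first are those with the smallest p-values over both experiments, shown because they lead the comparison and because the strands shown share no seed with each other. A single strand is shown per gene, and which strand of a hairpin is used in these brains was not measured.
miR-34c-3p (Mir34c, chr9:51103044-51103065, minus strand, within the annotated spans of Btg4 and Hoatz): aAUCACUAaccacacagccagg
miR-19b-3p (Mir19b-2, chrX:52741991-52742013, minus strand, inside no protein-coding gene): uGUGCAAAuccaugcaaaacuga
miR-153-3p (Mir153, chr12:117250860-117250881, plus strand, within Ptprn2): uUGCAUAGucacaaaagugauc
miR-7b-5p (Mir7b, chr17:56243017-56243040, plus strand, inside no protein-coding gene): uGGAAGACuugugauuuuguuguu
miR-155-5p (Mir155, chr16:84714143-84714165, plus strand, inside no protein-coding gene): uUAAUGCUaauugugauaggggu
miR-369-3p (Mir369, chr12:109743466-109743486, plus strand, in the Dlk1-Dio3 domain): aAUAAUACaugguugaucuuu
miR-196a-5p (Mir196a-1, chr11:96265187-96265208, plus strand, inside no protein-coding gene): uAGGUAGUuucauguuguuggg
miR-210-3p (Mir210, chr7:141221407-141221428, minus strand, inside no protein-coding gene): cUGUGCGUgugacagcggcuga

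The next sequences belong to genes whose ethanol difference had opposite signs in the experiments, and 5 of these 7 lie together in the imprinted Dlk1-Dio3 domain of chromosome 12.
miR-376b-3p (Mir376b, chr12:109723508-109723528, plus strand): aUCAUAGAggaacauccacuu
miR-380-3p (Mir380, chr12:109711842-109711863, plus strand): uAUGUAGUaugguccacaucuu
miR-300-3p (Mir300, chr12:109724363-109724384, plus strand): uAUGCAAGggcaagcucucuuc
miR-329-3p (Mir329, chr12:109713541-109713562, plus strand): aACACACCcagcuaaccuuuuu
miR-382-5p (Mir382, chr12:109733781-109733802, plus strand): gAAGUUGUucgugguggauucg
miR-138-5p (Mir138-2, chr8:94324312-94324334, plus strand, within Nup93): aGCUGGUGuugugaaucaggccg
miR-128-3p (Mir128-1, chr1:128202404-128202424, plus strand, within R3hdm1): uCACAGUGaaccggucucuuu

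Over both experiments, RNA of most microRNA genes was slightly higher in the ethanol samples. The difference was above 0 for 176 of the 207 genes (85%), against 45.6% of all tested probe sets, with a median of 0.081 in log2 units against -0.0083. No gene passed the test of limma with Benjamini-Hochberg adjustment over all 21789 probe sets, and 0% of all probe sets did. The smallest adjusted p of a microRNA gene was 0.215. At an unadjusted p under 0.05, 43 microRNA genes were higher (4.72% of all probe sets were) and 0 were lower (7.68% of all probe sets were). Without control array 1 of experiment 1, 28 were higher. The direction share depended on scaling: 150 genes (72.5%, against 41.4% of all) were above 0 after quantile normalization, and 152 (73.4%, against 31.8%) with each array centred on its median.

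Part of this shift is shared by all probe sets of low signal, and microRNA probe sets were mostly dim. Their mean signal had a median of 6.012 in log2 units against 7.365 for all probe sets, and 95, 76, 27 and 9 of them fell into 4 equal signal classes of all tested probe sets, from class 1, the dimmest, to class 4. In class 1 the median difference was 0.057 for microRNA genes and 0.041 for all probe sets, which lie close together. In class 2 the medians were 0.087 and 0.016. In classes 3 and 4 the values had opposite signs, with 0.14 for microRNA genes against -0.051, and 0.14 against -0.039. Of the 36 microRNA genes above the median signal, 34 were above 0. The share at an unadjusted p under 0.05 and higher was 20 of 95, 14 of 76, 7 of 27 and 2 of 9 in the same order, where all probe sets gave 8.55%, 8.54%, 1.29% and 0.514%. Lower at that threshold were 0 microRNA genes in each class, where all probe sets gave 0.441%, 4.52%, 15.3% and 10.5%.

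**Figure D1:**
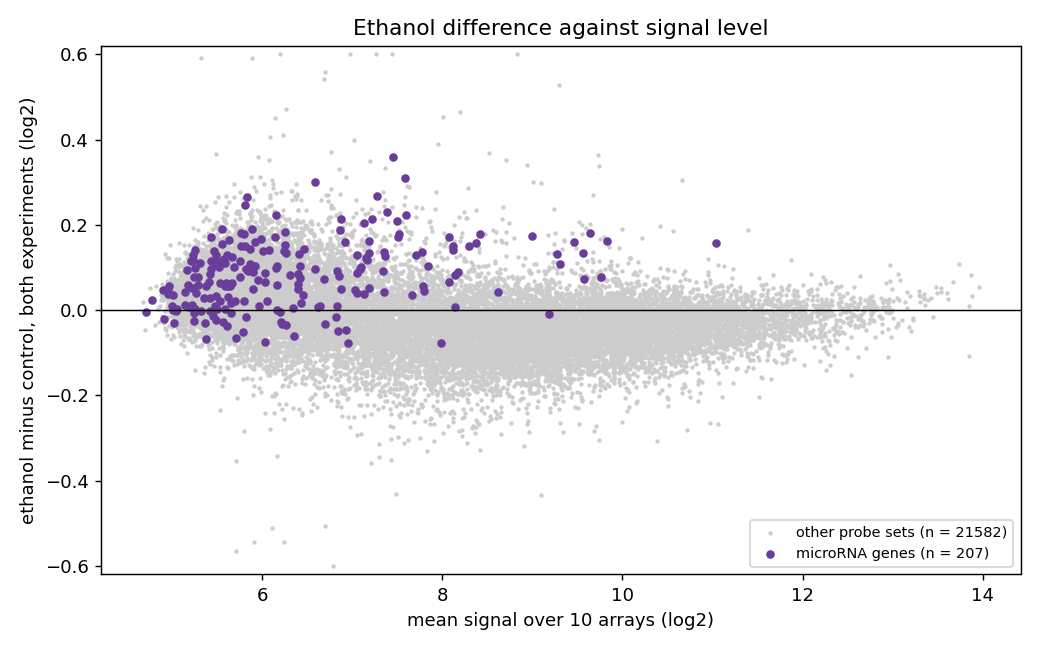
Ethanol minus control over both experiments (log2, vertical axis) against the mean signal over the 10 arrays (log2, horizontal axis) for each of 207 microRNA genes (purple) and the other single-symbol probe sets (grey, with differences beyond 0.6 drawn at the edge). Most microRNA genes lie at low signal, and of the 36 above the median signal 34 lie above 0.

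Within experiment 1, 134 of the 207 genes (64.7%) were above 0 where 48.2% of all probe sets were, with a median of 0.053. At an unadjusted p under 0.05, 22 were higher (4.02% of all) and 5 lower (4.93% of all), and 0 passed the adjusted test (0% of all), the smallest adjusted p being 0.309. This count leaned on single arrays: it was 8 without control array 1, 35 without control array 2 and 37 without ethanol array 2, and the median was 0.0048 and 0.011 without control array 1 and without ethanol array 1. Without ethanol array 1, Mir190b and Mir141 passed the adjusted test, among 235 probe sets in all. This leaves 1 ethanol array in experiment 1, which is assumed to vary like the arrays of the other groups. Mir190b, singled out by this, stood at 6.70 and 7.67 under ethanol against 6.80 and 7.02 in controls, so that ethanol array 2 alone was high and the groups overlapped.

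Within experiment 2, 173 genes (83.6%) were above 0 where 45.1% of all probe sets were, with a median of 0.087. At an unadjusted p under 0.05, 41 were higher (3.78% of all) and 0 lower (6.19% of all), and 0 passed the adjusted test (0% of all), the smallest adjusted p being 0.242. The count was 23 without control array 2. Without control array 3, Mir300 passed the adjusted test (0.61, adjusted p = 0.0197 by limma), the only probe set of the table to do so.

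Median levels relative to the control mean of each experiment are given here for the 36 genes above the median signal. In experiment 1 they stood at 0.051 and -0.095 on the ethanol arrays and at -0.017 and 0.017 on the controls, so that the groups overlapped and the ethanol arrays had opposite signs. In experiment 2 they stood at 0.21, 0.20 and 0.23 on the ethanol arrays against -0.066, -0.071 and 0.10 on the controls. The 3 ethanol arrays of experiment 2 were thus all above the 3 controls, of which control array 3 was the nearest. For the 171 dimmer genes the ethanol arrays stood between 0.020 and 0.078 in both experiments, against -0.039 to 0.039 on the controls. In experiment 1 ethanol array 2 (0.020) lay below control array 2 (0.039). All 10895 probe sets of that signal range stood at 0.016 to 0.048 on the ethanol arrays, against -0.017 to 0.017 on the controls.

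**Figure D2:**
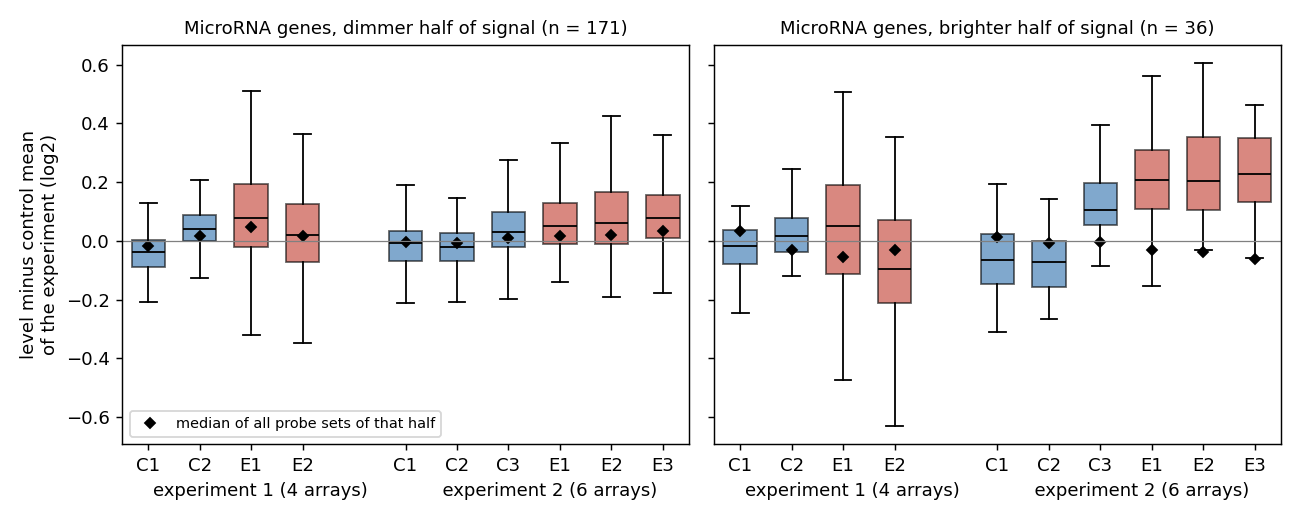
Level of each microRNA gene minus the control mean of its experiment (log2, vertical axis) on each array (C control, blue; E ethanol, red), for the 171 genes below and the 36 genes above the median signal. Boxes span the quartiles with the median as a line, whiskers show the spread beyond them with outlying points not drawn, and diamonds mark the median of all probe sets of the same signal range. The medians of the brighter genes are 0.20 to 0.23 on the 3 ethanol arrays of experiment 2, and 0.051 and -0.095 on those of experiment 1.

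Both experiments were above 0 for 111 genes (53.6%, against 25.4% of all probe sets) and both were below 0 for 11 (5.31%, against 32.1%). Another 62 (30%, against 19.7%) were below 0 in experiment 1 and above 0 in experiment 2, and 23 (11.1%, against 22.8%) were the reverse. On all 5 of 5 ethanol arrays, 45 genes (21.7%, against 7.52%) stood above the control mean of their experiment. The difference between the experiments was tested directly, and 0 genes passed the adjusted test (0% of all, smallest adjusted p 0.598 by limma). The difference was above 0, with the larger value in experiment 2, for 114 genes (55.1%, against 47.3% of all). With an unadjusted p under 0.05, 23 genes had the larger value in experiment 2 (3.33% of all) and 1, Mir141, in experiment 1 (3.24% of all).

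In experiment 1 both ethanol arrays lay above both controls for 54 genes (15.1% of all probe sets) and below them for 20 (19.2% of all). In experiment 2 all ethanol arrays lay above all controls for 44 genes (7.62% of all) and below them for 0 (11.6% of all). In 7 genes all ethanol arrays lay above all control arrays in both experiments, which held for 1.47% of all probe sets: Mir34c, Mir19b-2, Mir153, Mir7b, Mir196a-1, Mir146 and Mir125b-2. None lay below in both, where 2.82% of all probe sets did. The last 2 of the 7 were named after their values were seen. Of the 7, Mir34c, Mir19b-2, Mir153, Mir196a-1 and Mir146 lay in signal class 1. There 79.3% of all probe sets were above 0 over both experiments, and 8.55% were higher at an unadjusted p under 0.05. In that class all ethanol arrays lay above all controls for 1540 of 5448 probe sets in experiment 1 and 734 in experiment 2. A fold of at least 1.2 higher over both experiments was reached by 5 genes (0.335% of all probe sets), with 1.28 for Mir194-1, 1.24 for Mir369, 1.23 for Mir155 and values just past that fold for Mir7b and Mir34c. At least that fold lower was reached by 0 (0.275% of all probe sets).

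Mir34c, a member of the miR-34 family that p53 induces and that is abundant in ciliated cells, had the smallest p over both experiments. Its levels in experiment 1 were 5.92 and 5.88 under ethanol against 5.66 and 5.84 in controls, and in experiment 2 they were 6.09, 5.97 and 5.93 against 5.65, 5.70 and 5.61. The ethanol arrays were above the controls in each experiment with no overlap, by a narrow gap in experiment 1. Its probe set lay in signal class 1, the dimmest. The difference was 0.27 ± 0.054 (SE), with a limma adjusted p of 0.215. Its family members were also above 0, with 0.13 ± 0.086 for Mir34a and 0.072 ± 0.096 for Mir34b. Levels of Mir34b overlapped between groups in both experiments although it lies beside Mir34c, in the same cluster. Markers of motile ciliated cells showed a median difference of 0.031, with overlapping ranges of their mean level in both experiments.

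Mir153, a microRNA of neurons that targets synaptic genes, lies within Ptprn2. Its levels were 6.02 and 5.91 against 5.63 and 5.68 in experiment 1, and 5.87, 5.97 and 5.89 against 5.83, 5.52 and 5.77 in experiment 2. The groups did not overlap in either experiment, with the widest gap in experiment 1. The difference was 0.25 ± 0.060, with a limma adjusted p of 0.298. The host Ptprn2 differed by 0.018 ± 0.042.

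Mir7b encodes miR-7b, which is abundant in the hypothalamus and pituitary. Its levels were 7.26 and 7.51 against 7.16 and 7.17 in experiment 1, and 7.37, 7.38 and 7.54 against 6.94, 7.23 and 7.22 in experiment 2. All 5 ethanol arrays were above all controls of their experiment. The difference was 0.27 ± 0.068, with a limma adjusted p of 0.306. The level of Gh, the growth hormone gene that marks the pituitary, was 12.0 and 10.7 against 6.22 and 6.40 in experiment 1, and 7.75, 13.5 and 7.63 against 7.51, 7.15 and 9.48 in experiment 2. The part of pituitary tissue in the Mir7b difference was not tested. Mir7-2 differed by 0.12 ± 0.065 and Mir7-1 by 0.042 ± 0.050, and these genes share their mature sequence, miR-7a-5p, whose seed is that of miR-7b. Mir375, which is typical of endocrine cells including those of the pituitary, differed by -0.015 ± 0.085.

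Mir155, which activated immune cells induce, stood at 6.78 and 6.63 against 6.26 and 6.67 in experiment 1, and at 6.75, 6.82 and 6.70 against 6.35, 6.30 and 6.595 in experiment 2. The groups overlapped in experiment 1 through control array 2 and did not overlap in experiment 2. The difference was 0.30 ± 0.079, with a limma adjusted p of 0.306. Mir369 stood at 7.62 and 7.91 against 7.32 and 7.46, and at 7.89, 7.87 and 7.39 against 7.46, 7.36 and 7.51, with ethanol array 3 of experiment 2 among the controls. Its difference was 0.31 ± 0.092.

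Mir19b-2 belongs to a cluster on the X chromosome related to the growth-promoting miR-17-92 cluster. Its levels were 5.85 and 5.92 against 5.73 and 5.70, and 5.85, 5.88 and 5.95 against 5.79, 5.70 and 5.63, with no overlap in either experiment and a difference of 0.18 ± 0.043. Mir196a-1, which lies among Hox genes, stood at 6.04 and 5.75 against 5.605 and 5.65, and at 5.85, 5.77 and 5.84 against 5.72, 5.68 and 5.70. The groups did not overlap, and the difference was 0.18 ± 0.056. Mir210, a target of hypoxia signalling, stood at 7.80 and 7.90 against 7.69 and 7.70, and at 7.83, 7.79 and 7.89 against 7.80, 7.68 and 7.65. Control array 1 of experiment 2 lay among its ethanol arrays, and the difference was 0.14 ± 0.044. The limma adjusted p-values of these 3 genes were 0.292, 0.311 and 0.315.

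**Figure D3:**
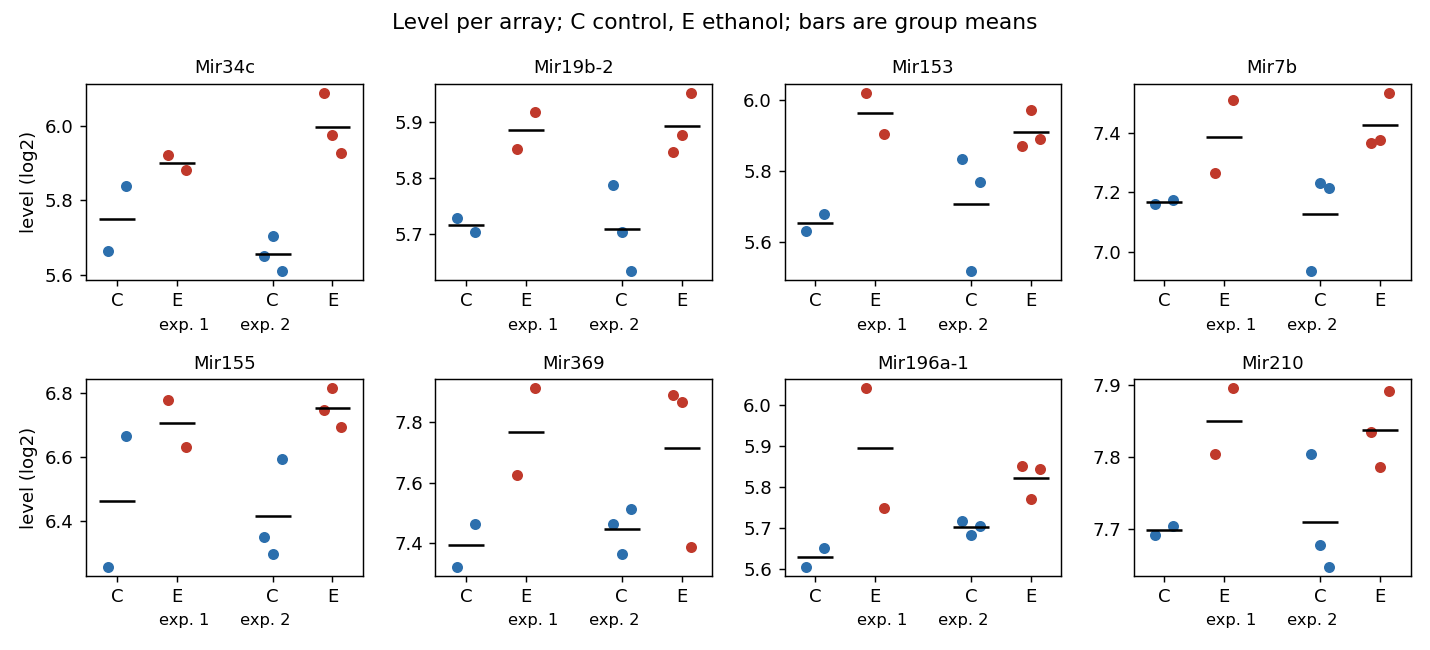
Level (log2, vertical axes) of the 8 microRNA genes with the smallest unadjusted p among those higher over both experiments, for each array (C control, blue; E ethanol, red; bars are group means). In 5 of the 8, Mir34c, Mir19b-2, Mir153, Mir7b and Mir196a-1, no control reaches an ethanol array of the same experiment. Of these 5, Mir34c, Mir19b-2, Mir153 and Mir196a-1 lie in the dimmest signal class.

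No microRNA gene was lower at an unadjusted p under 0.05 over both experiments. The 6 lower genes with the smallest p were Mir219a-1 (-0.067 ± 0.046), Mir124a-2 (-0.065 ± 0.045), Mir219a-2 (-0.074 ± 0.064), Mir15b (-0.051 ± 0.047), Mirlet7e (-0.048 ± 0.049) and Mir129-1 (-0.077 ± 0.081). Mir219a-1 and Mir219a-2 encode the same mature miR-219a-5p, which promotes the maturation of oligodendrocytes, and the markers of oligodendrocytes showed a median difference of -0.017. Mir219a-1 stood at 5.31 and 5.32 against 5.34 and 5.51 in experiment 1, and at 5.31, 5.37 and 5.37 against 5.32, 5.404 and 5.45 in experiment 2. Its ethanol arrays were below the control mean in 5 of 5 cases, and the groups overlapped in experiment 2.

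Brain-enriched microRNAs were measured by 22 genes of 29 symbols listed. Over both experiments 16 were above 0 and 3 were higher at an unadjusted p under 0.05, with a median of 0.099. The share of all probe sets higher at that threshold was 4.72%. In experiment 1 the median was -0.011 (8 above 0), and in experiment 2 it was 0.18 (17 above 0, with 8 higher at an unadjusted p under 0.05, against 3.78% of all). The 3 brightest were Mir346 (0.16 ± 0.071), Mir383 (0.18 ± 0.086) and Mir9-1 (0.13 ± 0.13), the last a gene of miR-9, which governs neural progenitors. Mir9-3, which gives the same mature miR-9-5p, differed by 0.15 ± 0.069. Of the miR-124 genes, which mark neurons, Mir124a-2 differed by -0.065 and Mir124a-3 by 0.063, so no common direction was seen.

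The activity-regulated microRNAs, which neurons induce or repress with firing or light, numbered 9, of which 5 were above 0 and 1 was higher at an unadjusted p under 0.05. Their median was 0.0011. Of all probe sets, 45.6% were above 0 and 4.72% were higher at that threshold, and of all microRNA genes 85% and 20.8%. The gene past that threshold was Mir212, a target of CREB, with 0.18 ± 0.070. Its levels were 6.25 and 6.49 against 6.05 and 6.20 in experiment 1, without overlap, and 6.47, 6.16 and 6.33 against 6.12, 6.30 and 6.11 in experiment 2, with overlap. Its neighbour Mir132 differed by 0.066 ± 0.060. Mir181c, also on this list, differed by 0.048 ± 0.079. The sensory cluster of Mir183, Mir96 and Mir182 differed by -0.021, -0.024 and 0.0011.

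All 11 measured immune and inflammatory microRNAs of 16 symbols listed were above 0, with a median of 0.10. Among all microRNA genes 85% were above 0. Of the 11, 6 lay in signal class 1, where 79.3% of all probe sets were above 0. At an unadjusted p under 0.05, 4 of the 11 were higher, against 20.8% of all microRNA genes and 4.72% of all probe sets. Beside Mir155, those higher at an unadjusted p under 0.05 were Mir222 (0.12 ± 0.047), Mir150 (0.11 ± 0.049) and Mir146 (0.100 ± 0.038), which restrains NF-kappaB signalling. The brightest, Mir181b-1 and Mir221, differed by 0.11 ± 0.11 and 0.038 ± 0.068. Markers of lymphoid and myeloid cells had a median difference of 0.011 and those of microglia -0.050. Within the experiments the medians of this list were 0.044 and 0.082.

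The let-7 family, which holds cells in a differentiated state, was near 0. Of 10 genes 6 were above 0, the median was 0.033, and it was -0.0039 after quantile normalization. Above 0 were 85% of all microRNA genes and 45.6% of all probe sets. Mir98 alone was higher at an unadjusted p under 0.05 (20.8% of all microRNA genes, 4.72% of all probe sets), with 0.21 ± 0.073. It stood at 7.53 and 7.29 against 6.94 and 7.10 in experiment 1 and at 7.32, 7.27 and 7.20 against 7.31, 7.13 and 7.06 in experiment 2, so that the groups were apart only in the first. The brightest, Mirlet7d, differed by 0.046 ± 0.064 and Mirlet7f-1 by -0.047 ± 0.065.

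Mir141 had the smallest p of all microRNA genes in experiment 1. It belongs to the miR-200 family, which maintains epithelial cells. Of that family 4 of 4 were above 0 with a median of 0.086, where 85% of all microRNA genes were above 0. Mir141 stood at 5.62 and 5.85 against 5.34 and 5.41 in experiment 1, a difference of 0.36 ± 0.082 (limma adjusted p = 0.309). In experiment 2 it stood at 5.62, 5.51 and 5.66 against 5.53, 5.54 and 5.48, a difference of 0.080 ± 0.067 with overlapping groups. The unadjusted p of the difference between experiments was 0.0243 by limma, an adjusted p of 0.722. Its cluster neighbour Mir200c differed by 0.11 ± 0.064 over both, while Mir200b and Mir200a differed by 0.058 ± 0.057 and 0.0085 ± 0.071, the last turning to -0.040 after quantile normalization and to -0.019 with arrays centred on their medians.

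The miR-17-92, miR-106a-363 and miR-106b-25 clusters, known for promoting cell division and survival, were above 0 throughout. All 13 measured genes of 18 symbols listed were above 0 over both experiments, and also within experiment 1 (median 0.14) and within experiment 2 (median 0.072). Those higher at an unadjusted p under 0.05 numbered 5, namely Mir19b-2, Mir19b-1 (0.15 ± 0.064), Mir20b (0.11 ± 0.041), Mir363 (0.11 ± 0.046) and Mir106b (0.16 ± 0.068). The brightest, Mir92-2, Mir25 and Mir93, differed by 0.096 ± 0.063, 0.075 ± 0.089 and 0.13 ± 0.092. Of these 13 probe sets 9 were in signal class 1, where all probe sets had a median of 0.041, and 4 in class 2. Over both experiments 79.3% of all probe sets in class 1 were above 0, with 73% in experiment 1 and 69.5% in experiment 2. In class 2 it was 57.9% over both. Higher at an unadjusted p under 0.05 were 8.55% of class 1 and 8.54% of class 2. Among all microRNA genes 85% were above 0 and 20.8% were higher at that threshold, against 45.6% and 4.72% of all probe sets. Array medians were 0.20 and 0.045 on the ethanol arrays of experiment 1 and 0.064, 0.073 and 0.11 on those of experiment 2, against controls of -0.017 to 0.017.
The miR-19 seed occurred both in Mir19b-2, on the X chromosome and printed above, and in the chromosome 14 cluster, as the following sequences show.
miR-19a-3p (Mir19a, chr14:115044048-115044070, plus strand): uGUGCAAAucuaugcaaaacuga
miR-19b-3p (Mir19b-1, chr14:115044358-115044380, plus strand): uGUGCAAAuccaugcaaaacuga
All 3 genes with this seed were above 0 (median 0.15). All 6 genes with the seed AAAGUGC (Mir17, Mir20a, Mir20b, Mir93, Mir106a and Mir106b) were above 0 (median 0.12), as were 85% of all microRNA genes.

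Embryonic stem cell microRNAs, which the adult brain is not known to use, were measured by 5 genes of 13 symbols listed, all from the Mir302 cluster. Mir302d, Mir302a, Mir302b and Mir302c were above 0 in experiment 1 by 0.32 ± 0.12, 0.16 ± 0.067, 0.19 and 0.27, each at an unadjusted p under 0.05. In experiment 1, 4.02% of all probe sets were higher at that threshold, and 457 of 5448 in signal class 1. In experiment 2 their differences lay between 0.027 and 0.075. Mir367, the last gene of the cluster, differed by -0.031 ± 0.042 over both experiments. All of these probe sets were dim, with mean signals of 5.23 to 6.14, and 4 of the 5 were in signal class 1. Muscle and heart microRNAs, another group from outside the brain, had a median of 0.012 over 6 genes of 11 symbols listed. That median was -0.015 after quantile normalization and -0.016 with arrays centred on their medians. At an unadjusted p under 0.05, 0 were higher (4.72% of all probe sets) and 0 lower (7.68% of all). Mir206, Mir1a-2 and Mir1a-1 differed by 0.063 ± 0.046, 0.020 ± 0.044 and 0.028 ± 0.047, and the last 2 were below 0 after quantile normalization (-0.025 and -0.010).

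Of the microRNAs that other studies tied to ethanol, 20 of 26 symbols listed were measured. Their median was 0.063, 16 were above 0, and 4 were higher at an unadjusted p under 0.05, namely Mir153, Mir155, Mir212 and Mir9-3. This share was close to the 20.8% of all microRNA genes, against 4.72% of all probe sets. Mir335 and Mir10a, also on that list, differed by 0.010 ± 0.060 and -0.036 ± 0.067. Mir29b-1, which targets collagen and methylation genes, differed by 0.092 ± 0.077.

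The microRNA genes of the imprinted Dlk1-Dio3 domain had values of opposite sign in the experiments. This domain on chromosome 12 makes its microRNAs from the maternal chromosome, together with the long noncoding RNAs Meg3 and Rian, and it is very active in brain. Of 20 symbols listed 19 were measured. Mir299a, which lies between Mir379 and Mir380, was not on the list because the list has it under its older symbol, Mir299, and it is described apart. In experiment 1, 16 were below 0, with a median of -0.15, and in experiment 2, 18 were above 0, with a median of 0.24. With an unadjusted p under 0.05, 1 was higher (4.02% of all probe sets) and 2 lower (4.93%) in experiment 1. In experiment 2, 11 were higher (3.78%) and 0 lower (6.19%). The difference between experiments passed an unadjusted p of 0.05 for 12 of the 19, all with the larger value in experiment 2 (3.33% of all probe sets). Over both experiments, 16 were above 0 with a median of 0.092.

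The opposite signs were seen on every ethanol array. Relative to the control mean, the median of the list in experiment 1 was -0.14 and -0.12 under ethanol, with control arrays at 0.014 and -0.014. In experiment 2 it was 0.22, 0.23 and 0.23 under ethanol, with control arrays at -0.11, -0.047 and 0.16. Control array 3 of experiment 2 thus lay near the ethanol arrays, and the median difference of experiment 2 was 0.34 without it and 0.19 to 0.24 without any other array of that experiment. Of the 19 genes, 16 (84.2%) were below 0 in experiment 1 and above 0 in experiment 2, against 19.7% of all probe sets. Mir299a went against this pattern. It stood at 5.63 and 5.43 under ethanol against 5.31 and 5.34 in experiment 1, without overlap, and at 5.62, 5.503 and 5.38 against 5.47, 5.29 and 5.30 in experiment 2, with overlap. Its differences were 0.21 ± 0.096 and 0.15 ± 0.078, both above 0. With it, 16 of 20 genes (80%) had these opposite signs, and the medians of the experiments were -0.14 and 0.24.

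**Figure D4:**
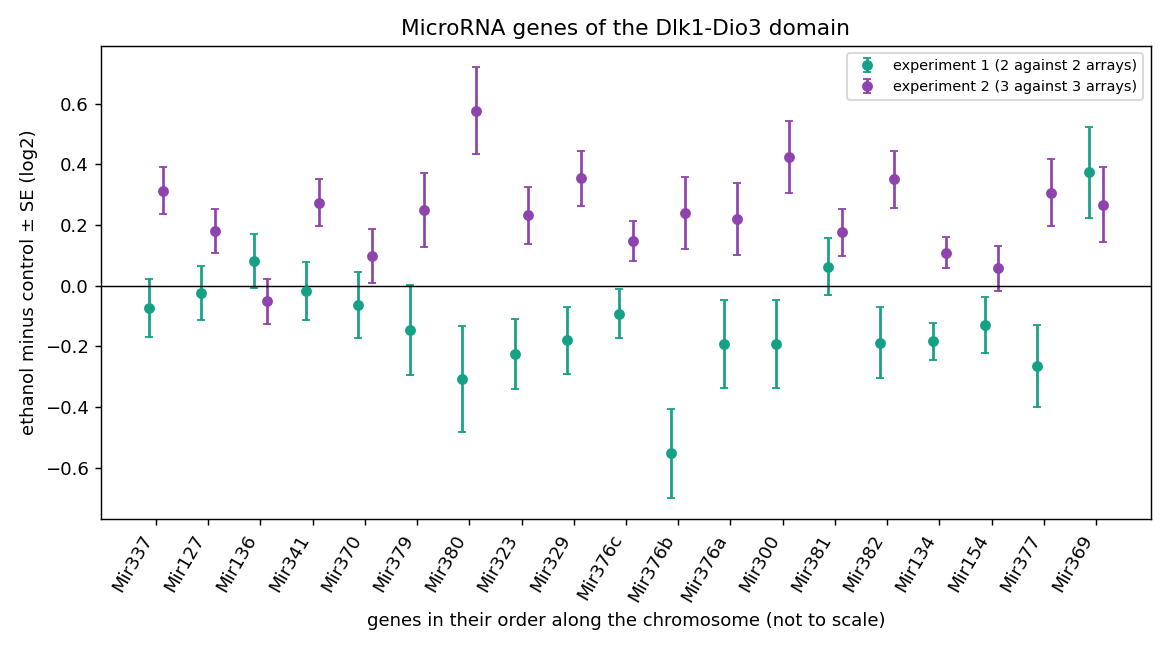
Ethanol minus control (log2, vertical axis; bars are standard errors) for the 19 microRNA genes listed for the Dlk1-Dio3 domain in their order along the chromosome, without Mir299a, in experiment 1 (green) and experiment 2 (purple). Except for Mir136, Mir381 and Mir369, the genes lie below 0 in experiment 1 and above 0 in experiment 2.

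Mir376b stood at 7.79 and 7.63 under ethanol against 8.30 and 8.23 in experiment 1, with no overlap, a difference of -0.55 ± 0.15. In experiment 2 it stood at 8.09, 8.04 and 8.18 against 7.72, 7.67 and 8.21, a difference of 0.24 ± 0.12, with control array 3 above all ethanol arrays. The difference between the experiments was 0.79 ± 0.19 (limma adjusted p = 0.665, and 0.0305 without control array 3 of experiment 2). Mir380 stood at 7.35 and 7.54 against 7.64 and 7.86 in experiment 1 and at 7.66, 7.92 and 8.08 against 6.999, 7.32 and 7.61 in experiment 2. The groups were apart in both experiments and in opposite directions, by -0.31 ± 0.18 and 0.58 ± 0.14.

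Mir300 showed the same arrangement, with 8.32 and 8.31 against 8.55 and 8.46 in experiment 1 and 8.67, 8.59 and 8.62 against 8.003, 8.04 and 8.56 in experiment 2. Its differences were -0.19 ± 0.14 and 0.42 ± 0.12. Mir341, the brightest microRNA probe set of all, differed by -0.017 ± 0.095 and 0.27 ± 0.078. Mir377 and Mir382, also bright, differed by -0.26 ± 0.14 and -0.19 ± 0.12 in experiment 1 and by 0.31 ± 0.11 and 0.35 ± 0.095 in experiment 2. Mir134, which limits dendritic spine size, differed by -0.18 ± 0.062 and 0.11 ± 0.051.

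Other transcripts of the domain were examined after these values were seen. Rian differed by -0.11 in experiment 1 and 0.35 ± 0.10 in experiment 2, and Meg3 by 0.0068 and 0.19 ± 0.061. Rtl1, which is expressed from the paternal chromosome, differed by -0.025 and 0.15 ± 0.058, and the paternal protein-coding gene Dlk1 by 0.17 and -0.062 ± 0.091. Dio3, at the far end of the domain, differed by -0.033 and 0.082 ± 0.053. The 18 microRNA genes of the domain with numbers of 400 or above had a median of -0.074 in experiment 1 and 0.23 in experiment 2. In experiment 1, 14 were below 0 and 22.2% were above 0, against 48.2% of all probe sets. In experiment 2, 18 of 18 were above 0 (45.1% of all), and 12 were higher at an unadjusted p under 0.05 (3.78% of all). The 187 members outside the domain, without Mir299a, had medians of 0.065 and 0.075.

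Outside the domain, 46 of 187 members were also below 0 in experiment 1 and above 0 in experiment 2, among them 10 of 21 brain-enriched genes. Mir138-2, which lies within Nup93 and restrains dendritic spines, had the smallest p of all microRNA genes for the difference between experiments. It stood at 7.27 and 7.11 against 7.62 and 7.38 in experiment 1, and at 7.52, 7.54 and 7.505 against 7.11, 7.06 and 7.32 in experiment 2. The groups were apart in both, by -0.31 ± 0.10 and 0.36 ± 0.082, and the difference between experiments was 0.66 ± 0.13 (limma adjusted p = 0.598). Mir138-1, another gene of the same mature microRNA, differed by -0.0086 and 0.17 ± 0.068.

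Mir128-1, a gene of the abundant neuronal miR-128, stood at 8.98 and 8.92 against 9.05 and 9.06 in experiment 1, and at 9.06, 9.30 and 9.19 against 8.63, 8.86 and 8.97 in experiment 2. Its differences were -0.11 ± 0.10 and 0.36 ± 0.085, and those of Mir128-2, which gives the same miR-128-3p, were -0.038 and 0.27 ± 0.12. Mir181b-1 differed by -0.26 ± 0.12 and 0.36 ± 0.099. Mir15a, among the 5 brightest members, differed by -0.22 ± 0.13 and 0.27 ± 0.10. Mir28a, which had a p among the 4 smallest of experiment 2, differed by 0.025 and 0.22 ± 0.051. In all, 8 genes had ethanol arrays wholly below the controls in experiment 1 and wholly above them in experiment 2 (1.04% of all probe sets), namely Mir128-1, Mir300, Mir329, Mir380, Mir7-1, Mir138-2, Mir374b and Mir134, of which Mir329 and Mir374b were named after their values were seen. The reverse was seen in 0 genes (0.904% of all probe sets).

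**Figure D5:**
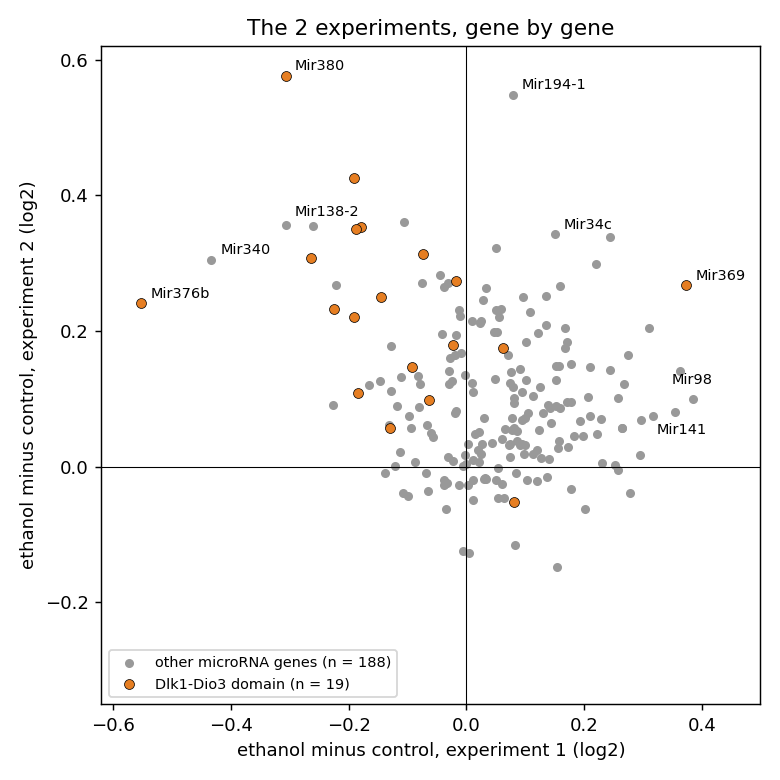
Ethanol minus control in experiment 2 (log2, vertical axis) against that in experiment 1 (log2, horizontal axis) for each of 207 microRNA genes, with the 19 listed for the Dlk1-Dio3 domain in orange and Mir299a among the others. The domain's genes gather at the upper left, and 111 of the 207 genes lie at the upper right.

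Within 10000 bases of a neighbour lay 87 members, with a median of 0.086, and 96 had no such neighbour, with a median of 0.080. The cluster of Mir23a, Mir27a and Mir24-2, which act in muscle and immune cells, had a median of 0.21, with 3 of 3 genes above 0 and 2 at an unadjusted p under 0.05. The X-chromosome cluster from Mir106a to Mir363 had 5 of 5 above 0, with 3 at that threshold. The cluster from Mir17 to Mir19b-1 also had 5 of 5 above 0, with 1 at that threshold. Among all microRNA genes 85% were above 0 and 20.8% were higher at that threshold, against 45.6% and 4.72% of all probe sets.

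Copies of the same mature microRNA did not always have like values. Mir194-1 had the largest difference of all microRNA genes, 0.36 ± 0.12, and was picked out after its value was seen, while Mir194-2, which gives the same miR-194-5p, differed by 0.0055 ± 0.047. Mir194-1 stood at 7.68 and 7.31 against 7.36 and 7.47 in experiment 1 and at 7.57, 7.70 and 7.92 against 7.09, 6.97 and 7.48 in experiment 2. Its groups overlapped in the first and were apart in the second. The copies of miR-196a, Mir196a-1 and Mir196a-2, differed by 0.18 and 0.19, and those of miR-125b by 0.0021 and 0.12.

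Hairpin composition did not track the values. Across the 183 genes with a hairpin in the RefSeq table, which share the same 10 arrays, the Spearman rank correlation of GC percentage was -0.035 with mean signal and -0.030 with the difference over both experiments. Across 207 genes, the Spearman rank correlation of mean signal was 0.34 with the difference over both experiments, -0.17 with that of experiment 1 and 0.53 with that of experiment 2. Genes are not independent replicates, and these are descriptions.

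Of 52 listed pairs of a microRNA and its protein-coding host gene, 44 were measured, with 38 different hosts, and in 43 the microRNA lay inside the span of its host in the RefSeq table, with no position for the other, Mir383. The microRNA was above 0 in 38 pairs and the host in 9, and the microRNA was above its host in 39, in 32 within experiment 1 and in 41 within experiment 2. The medians were 0.088 for the microRNAs and -0.051 for the hosts. Counting each host once, 0 of 38 were higher at an unadjusted p under 0.05 (4.72% of all probe sets) and 6 were lower (7.68% of all). The hosts were bright, with 37 of their 41 probe sets in signal classes 3 and 4. Those 37 had a median of -0.043, close to the -0.051 and -0.039 of all probe sets in these classes.

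Mcm7, a replication factor that hosts Mir106b, Mir93 and Mir25, differed by -0.23 ± 0.067 where these differed by 0.16, 0.13 and 0.075. Pank1, an enzyme of coenzyme A synthesis, differed by -0.12 ± 0.048 where Mir107 differed by 0.21. Sgcz differed by -0.12 ± 0.052 where Mir383 differed by 0.18, and Grid1, a glutamate receptor subunit, by -0.039 ± 0.062 where Mir346 differed by 0.16. Huwe1 differed by 0.019 ± 0.040, and its microRNAs Mir98 and Mirlet7f-2 by 0.21 and -0.0073. R3hdm1 differed by 0.055 ± 0.040, below the 0.17 of Mir128-1. No pair was tested.

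The list of microRNA processing and action held 46 symbols, some of them older symbols of genes also listed under newer ones. Of its genes 39 were measured, by 43 probe sets, and 0 passed the adjusted test (0% of all). Their median was -0.030, and 13 were above 0. In experiment 1, 37 of the 43 were below 0 (median -0.068), and in experiment 2, 22 were (median -0.0074). These probe sets were bright, with a median signal of 9.595. Above 0 were 14% of them in experiment 1 and 48.8% in experiment 2, against 31% and 27.9% of all probe sets above the median signal. Over both experiments, all probe sets of signal classes 3 and 4 had medians of -0.051 and -0.039. Of these, 15.3% and 10.5% were lower at an unadjusted p under 0.05. At that threshold 1 processing probe set was higher (4.72% of all) and 6 were lower (14%, against 7.68% of all). The lower ones were Tsn (-0.11 ± 0.040), Ran (-0.11 ± 0.042), which drives export from the nucleus, Cnot6 (-0.13 ± 0.053), a deadenylase, Tarbp2 (-0.13 ± 0.055), the partner of Dicer, Fmr1 (-0.10 ± 0.045) and Khsrp (-0.12 ± 0.053). A second probe set of Tarbp2 differed by 0.040 ± 0.069, so the probe sets disagreed. The higher one was the helicase Mov10 (0.11 ± 0.046). Only 1 of the processing genes was lower at that threshold without ethanol array 1 of experiment 1.

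Of the core enzymes, Drosha differed by 0.0062 ± 0.038 and the export receptor Xpo5 by -0.018 ± 0.037. Dicer1 differed by -0.0084 ± 0.052 over both experiments, from -0.12 ± 0.073 in experiment 1 and 0.068 ± 0.059 in experiment 2. The probe sets of Ago2, the Argonaute with slicing activity, differed by -0.030 ± 0.045 and -0.016 ± 0.066. Dgcr8 differed by -0.12 ± 0.062, with an adjusted p of 0.442 by limma. Within the experiments it differed by -0.23 ± 0.094, at an unadjusted p under 0.05, and by -0.052 ± 0.076.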

How the data were processed

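Total RNA of 10 pools of mouse brains was measured on Affymetrix whole-transcript arrays. The table that the authors deposited holds log2 levels, 1 per probe set and array. The submitters' processing notes name Partek 6.6. How background, normalization and batch were handled is not given in the sources used here. Arrays were grouped by their titles. Symbols came from the platform annotation, which listed 23410 of 35556 probe sets, 1621 of them with several symbols. No filter was applied. Differences, ethanol minus control, were estimated with limma 3.58.1 (R 4.3.3, lmFit and eBayes, Benjamini-Hochberg over 21789 probe sets, threshold 0.05). For the difference over both experiments, treatment was fitted beside an experiment term (residual degrees of freedom 7, prior 5.57). A mean per experiment and treatment gave the differences within experiments (6 plus 5.45) and their difference. The median standard error of the microRNA genes was 0.062 over both experiments, 0.096 in experiment 1 and 0.078 in experiment 2. The number of arrays limits the precision. The members and lists were chosen with earlier results of these data known. Some lists give a gene under both an older and a newer symbol, so the symbols listed outnumber the genes. Named genes were the 8 higher and 6 lower with the smallest p over both experiments, the 4 with the smallest p in each other comparison, the 5 of highest signal, the 3 brightest of each list, the main processing genes with the 4 of smallest p, and hosts, copies and neighbours of these. Genes named outside this rule, such as further list members past the unadjusted threshold, were named after their values were seen. Processing was also varied (other scalings, filters, variance settings, array weights, a replicate block, and leaving out each array). The code was tested on simulated data. Figures were drawn with matplotlib 3.10.9.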

Additional observations from a re-analysis of the deposited data

Results flagged for a closer look

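The 19 microRNA genes listed for the imprinted Dlk1-Dio3 domain, without Mir299a, had a median difference of -0.145 in experiment 1 and 0.241 in experiment 2. They stand out because the median over the genes was below the control mean on both ethanol arrays of experiment 1 and above it on all 3 ethanol arrays of experiment 2. For the list as a whole this difference was not tested. For single genes it was, and 0 of the 19 passed the adjusted test.

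The let-7 family had a median difference of 0.0109 in experiment 1 and 0.0279 in experiment 2. It stands out for the same reason, with array medians of -0.0088 and -0.049 on the ethanol arrays of experiment 1 and of 0.080, 0.051 and 0.041 on those of experiment 2. The control arrays stood at -0.014 and 0.014 in experiment 1 and ranged from -0.042 to 0.048 in experiment 2, so the groups overlapped in both. Unlike those of the domain, both median differences were above 0. The difference between the experiments was not tested for the list, and 0 of the 10 genes had an unadjusted p under 0.05 for it.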

How the results depend on the processing

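The median over both experiments stayed above 0 in all settings tried, and 0 microRNA genes passed the adjusted test over both experiments in any of them. The count higher at an unadjusted p under 0.05 (43) was 26 after quantile normalization (2 lower) and 19 with arrays centred. Of all probe sets, 2.21% were higher and 6.31% lower after quantile normalization, and 1.95% and 13.5% with arrays centred. The count was 28 with all probe sets of the value table tested. It was 22 among the 112 genes above the 25th percentile of signal and 9 among the 36 above the median. The last filter was added after the data were seen, and the median difference with it was 0.14. In experiment 1 the count (22) was 14, 8 and 1 with quantile normalization and these filters, and 10 with the experiment fitted alone, the count lower (5) was 3 above the median and 8 alone, and the median turned to -0.020 above the median signal. In experiment 2 the count (41) was 24 with arrays centred and 20 above the median, and the median was 0.047, 0.14 and 0.23 with centring and the filters. For the difference between experiments the count lower (1) was 2, 5, 0, 0, 2 and 3 with quantile normalization, centring, the filters, an intensity trend and array weights, and the medians with the filters were 0.11 and 0.26. Processing genes higher (1) were 0 with centring or a trend, and those lower (6) were 3 and 10 with quantile normalization and centring. List medians became -0.0039 for let-7 (quantile), -0.015 and -0.016 for muscle (quantile, centring), 0.057, 0.0085 and 0.17 for activity-regulated, miR-200 and embryonic stem cell genes (25th percentile), and 0.021, 0.036, 0.11 and 0.13 for the genes tied to ethanol (quantile, centring, filters). The filters test fewer genes, and for the other settings the cause was not tested. In the unfiltered fit, 98 of 10894 probe sets above the median signal were higher at an unadjusted p under 0.05 over both experiments. Apart from those printed, shares of all probe sets in these settings are not given here.

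Leaving out each array gave 28 to 56 higher and 0 to 1 lower over both experiments. In experiment 1 it gave 0 to 2 genes past the adjusted test, 8 to 37 higher, 4 to 14 lower and medians of 0.0048 to 0.079. In experiment 2 it gave 0 to 1, 23 to 52 and 0 to 1. The difference between experiments had 0 to 2 past the adjusted test, 1 to 18 lower and medians of -0.023 to 0.059. Processing genes gave 0 to 1 higher and 1 to 9 lower, and the embryonic stem cell list medians of 0.070 to 0.14. Shares of all probe sets with each array left out are not given here. The ranges therefore do not show whether microRNA genes moved apart from other probe sets.

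Whether the replicate numbers pair the samples could not be decided from so few arrays. Correlations of same-numbered deviations were -0.052 in experiment 1, where 2 arrays per group give a single value. In experiment 2 they were 0.0062, -0.15 and 0.23. With a replicate block, 41 genes were higher and 0 lower over both experiments, 3 were lower for the difference between experiments, and 0 processing genes were higher.

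Among named genes, signs turned for Mir376b (0.0036 with array weights), Mir134 (0.029 and 0.032 with quantile normalization and weights), Mir200a (-0.040, -0.019 and -0.00091 with quantile normalization, centring and weights), Mir1a-2 (-0.025 and -0.0072 with quantile normalization and centring) and Mir1a-1 (-0.010 with quantile normalization). Leaving out an array gave -0.17 to 0.021 for Mir376b, -0.039 to 0.025 for Mir134, -0.0065 to 0.095 for Mir181c, -0.023 to 0.098 for Mir221, -0.051 to 0.055 for Mir200a, -0.0045 to 0.15 for Mir25 and -0.011 to 0.041 for Mir1a-2. Signal over background could not be read from these values.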

Other observations

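MicroRNA genes with numbers of 400 or above, which were not members, were also mostly above 0. Of 91 such probe sets 73 were above 0 over both experiments (45.6% of all probe sets were), with a median of 0.070. At an unadjusted p under 0.05, 15 were higher (4.72% of all) and 0 lower (7.68% of all). Their medians were 0.0067 in experiment 1 and 0.091 in experiment 2. Small nucleolar RNA genes, which encode another class of short noncoding RNAs that guide the modification of ribosomal RNA, were mostly below 0. Of 56 such probe sets, picked after the values of the microRNA genes were seen, 17 were above 0, with a median of -0.030. At that threshold 1 was higher and 4 were lower. Their median signal was 7.449, against 6.012 for the members and 7.365 for all probe sets. Of all probe sets, 57.9% in signal class 2 and 22.7% in class 3 were above 0, with medians of 0.016 and -0.051. The 17 probe sets that name a microRNA together with other symbols had a median of 0.046, with 12 above 0.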
